A study of Mus musculus with 17 samples.

Results

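The genes of glycolysis and of the response to low oxygen were described in mouse mammary tumours. The list was drawn up by name, with earlier results of these data known. It held 32 genes: glucose transporters, glycolytic enzymes, genes of pyruvate and lactate handling, hypoxia markers and the Max-network gene Mxd3. Of these, 29 had a probe set on the array and 28 entered the gene model, which tested 12393 genes. Gapdh was read only from its 3 Affymetrix control probe sets, because its 2 other probe sets are shared with other genes in the probe table. Gpi1, Eno1 and Ankrd37 have no expression value here and enter only the promoter counts. Ero1a (formerly Ero1l), which belongs to the hypoxia markers by the same rule, was added, so that the model held 29 genes of the rule, among them 12 glycolytic enzymes and 9 hypoxia markers.

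Affymetrix arrays, 1 per tumour, gave log2 values for 17 tumours of the FVB strain. All of them carried the mutant Myc T58A under the MMTV promoter, which drives expression in mammary epithelium, and all were labelled as low expressing. By histology 9 were Squamous, 6 EMT (epithelial to mesenchymal transition), 1 Papillary and 1 Microacinar, with no untreated or normal gland among them, and ages were not given. No label says that the tumours of a group came from separate mice: Squamous 7 and Squamous 8 share a number in their titles, as do Squamous 5 and the Microacinar tumour. What the p-values measure is thus the spread between these tumours, which may be technical in part. Tumours were numbered within a histology in accession order only to name them.

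Array titles came in 2 formats. EMT 5, EMT 6 and Squamous 9 have TM in the title, and their values spread more widely (SD over probe sets of 2.46 to 2.51) than on the 14 numbered arrays (2.25 to 2.29). Title format was therefore a term of the model. Of 10 mammary epithelial markers, all 10 lay above the array median in every Squamous tumour and in EMT 1, EMT 2 and EMT 3, but only 2 in EMT 4, 2 in EMT 5 and 4 in EMT 6. The skeletal muscle marker mean was highest in EMT 4 at 10.83, with 12 of its 13 markers higher there than in any other tumour, and lay between 4.94 and 9.01 in Squamous tumours.

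Glycolysis breaks glucose down to pyruvate in the cytosol. When pyruvate is reduced to lactate, glycolysis can run without oxygen. When oxygen falls, prolyl hydroxylases of the EGLN family stop marking the HIF alpha subunits for destruction, and HIF then binds hypoxia response elements in the promoters of transporters, glycolytic enzymes, Vegfa, Car9 and others. Myc is also known to bind many glycolytic promoters at E-box motifs. In bulk tumour RNA, fewer cells of a type and less RNA per cell cannot be told apart.

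The promoters of 4 genes on which the results below turn are shown: Pgk1 and Bnip3, an enzyme and a hypoxia marker that moved together over the tumours, and Ldha and Ldhb, isozymes with an r of -0.48. Each is the RefSeq window from 250 bases before to 50 after the gene's start in GRCm38.p6, read 5′ to 3′ on the gene's strand, at chrX:106186850-106187149 on the plus strand, chr7:138909457-138909756 on the minus strand, chr7:46845554-46845853 on the plus strand (the first of 2 listed starts) and chr6:142507908-142508207 on the minus strand. Capitals mark the letters ACGTG or GCGTG, the core of the hypoxia response element, on either strand (CACGT and CACGC on the other), and CACGTG, the E-box, which holds ACGTG on both strands.
Pgk1: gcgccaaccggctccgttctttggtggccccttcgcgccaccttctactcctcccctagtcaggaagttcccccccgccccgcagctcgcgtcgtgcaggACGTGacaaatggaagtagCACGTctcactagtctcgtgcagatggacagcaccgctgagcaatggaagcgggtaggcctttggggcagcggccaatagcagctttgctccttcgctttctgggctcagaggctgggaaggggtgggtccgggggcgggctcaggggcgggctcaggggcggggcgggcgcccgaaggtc
Bnip3: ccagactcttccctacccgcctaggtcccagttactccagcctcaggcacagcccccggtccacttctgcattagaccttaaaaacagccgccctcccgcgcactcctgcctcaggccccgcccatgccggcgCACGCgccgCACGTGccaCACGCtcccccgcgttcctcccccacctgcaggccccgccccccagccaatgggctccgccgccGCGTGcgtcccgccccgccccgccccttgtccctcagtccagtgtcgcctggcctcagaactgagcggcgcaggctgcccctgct
Ldha: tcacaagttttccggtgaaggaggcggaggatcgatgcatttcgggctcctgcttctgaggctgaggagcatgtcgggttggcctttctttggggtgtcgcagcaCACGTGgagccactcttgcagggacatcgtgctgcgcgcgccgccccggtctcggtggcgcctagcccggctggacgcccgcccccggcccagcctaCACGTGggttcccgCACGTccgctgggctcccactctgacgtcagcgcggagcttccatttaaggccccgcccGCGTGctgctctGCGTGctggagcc
Ldhb: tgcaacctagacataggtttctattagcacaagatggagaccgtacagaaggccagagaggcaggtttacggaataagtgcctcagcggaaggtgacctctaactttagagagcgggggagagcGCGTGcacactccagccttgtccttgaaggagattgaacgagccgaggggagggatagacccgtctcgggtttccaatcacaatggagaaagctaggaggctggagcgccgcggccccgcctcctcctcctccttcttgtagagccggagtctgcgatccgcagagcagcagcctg
The Pgk1 window holds 2 matches to ACGTG, both outside an E-box. The Bnip3 window holds 1 E-box and 3 matches to GCGTG. The Ldha window holds 2 E-boxes, 1 match to ACGTG outside them and 2 to GCGTG, and the Ldhb window holds 1 match to GCGTG and none to ACGTG. Aldoc, not shown, is an enzyme whose mean was lower in EMT than in Squamous tumours, as that of Ldhb was. Its window (1 of 2 listed starts) holds 1 match to ACGTG and 2 to GCGTG. The window of the hypoxia marker Car9, also not shown, holds 1 match to ACGTG and none to GCGTG. Windows were listed for 31 of the 33 genes looked up, 45 in all because some have several starts, and not for Slc2a3 and Ndrg1. ACGTG or GCGTG occurred in 9 of 10 hypoxia marker windows and in 18 of 25 glycolytic enzyme windows, against 43.8% of all 32851 windows. CACGTG occurred in 1 of the 10 and in 1 of the 25, against 7.15% of all. Base composition differs too, with a median GC content of 65.5% in the hypoxia marker windows, 59.0% in the enzyme windows and 52.7% over all. A match is a description of these letters, not a site.

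EMT and Squamous are the histologies with replicates, and the first question is how these genes differ between them. Most of the genes lay higher in EMT 2, EMT 3, EMT 5 and EMT 6 than in Squamous tumours, EMT 1 lay among the Squamous tumours, and EMT 4 had the lowest mean level of both the enzymes and the hypoxia markers. The hypoxia marker mean was 10.95, 10.31, 10.41 and 11.06 in EMT 2, EMT 3, EMT 5 and EMT 6, all above the Squamous maximum of 9.67. It was 9.46 in EMT 1, and 8.13 in EMT 4, under the Squamous minimum of 8.38. Aldoc and Ldhb ran the other way, and Pfkm was highest in EMT 4.

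**Figure D1:**
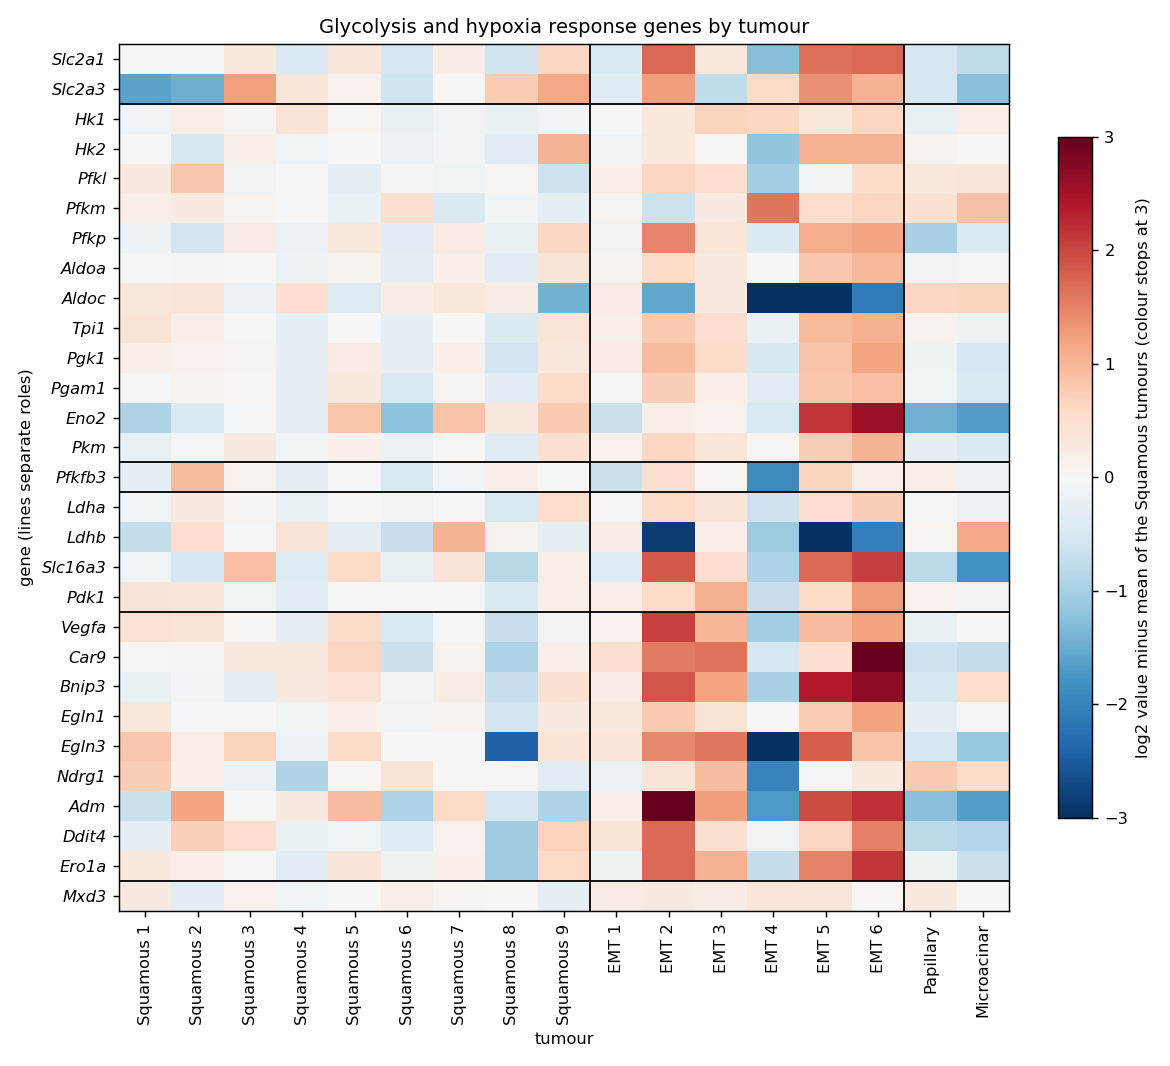
Log2 value of each gene minus its mean over the 9 Squamous tumours, in all 17 tumours (columns) for the 29 genes of the model (rows, grouped by role). Hypoxia markers are mostly red in EMT 2, EMT 3, EMT 5 and EMT 6 and mostly blue in EMT 4, while Aldoc and Ldhb are blue in EMT 2, EMT 4, EMT 5 and EMT 6.

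By limma with Benjamini-Hochberg adjustment over 12393 genes, 0 genes had an adjusted p under 0.05 (0% of all), and so 0 of the 29 genes. Without EMT 1 the count over all genes was 14, with 0 of the 29 among them. At an unadjusted p under 0.05, limma gave 1001 genes higher and 777 lower in EMT. The adjusted p of the 29 ran from 0.209 to 0.921. Of the 29, 7 were among those higher in EMT (Hk1, Aldoa, Tpi1, Pkm, Bnip3, Egln1 and Mxd3), where the background is 8.08% of all genes. Lower in EMT were 2 of the 29 (Aldoc and Ldhb), with a background of 6.27%. Leaving out each tumour in turn gave 5 to 9 genes higher in 14 of the 15 cases (backgrounds 5.24% to 9.88%), with 6 without EMT 2 (background 7.41%) and 5 without EMT 3 (background 9.44%). In the remaining case, without EMT 4, 21 of the 29 were higher (background 6.45%) and 1 was lower (Ldhb, background 4.03%), with 0 at an adjusted p under 0.05. EMT 4 has the lowest mean of these same genes and was singled out after the values were seen, so that count is a description and no support for a difference. The fitted difference, EMT minus Squamous, was above 0 for 24 of the 29 genes, against 51.8% of all genes. Its median was 0.66 over the hypoxia markers, 0.35 over the glycolytic enzymes and 0.01 over all genes. Leaving out EMT 4 gave a hypoxia marker median of 1.07. Leaving out EMT 2 gave 0.38 for the markers and 0.22 for the enzymes.

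**Figure D2:**
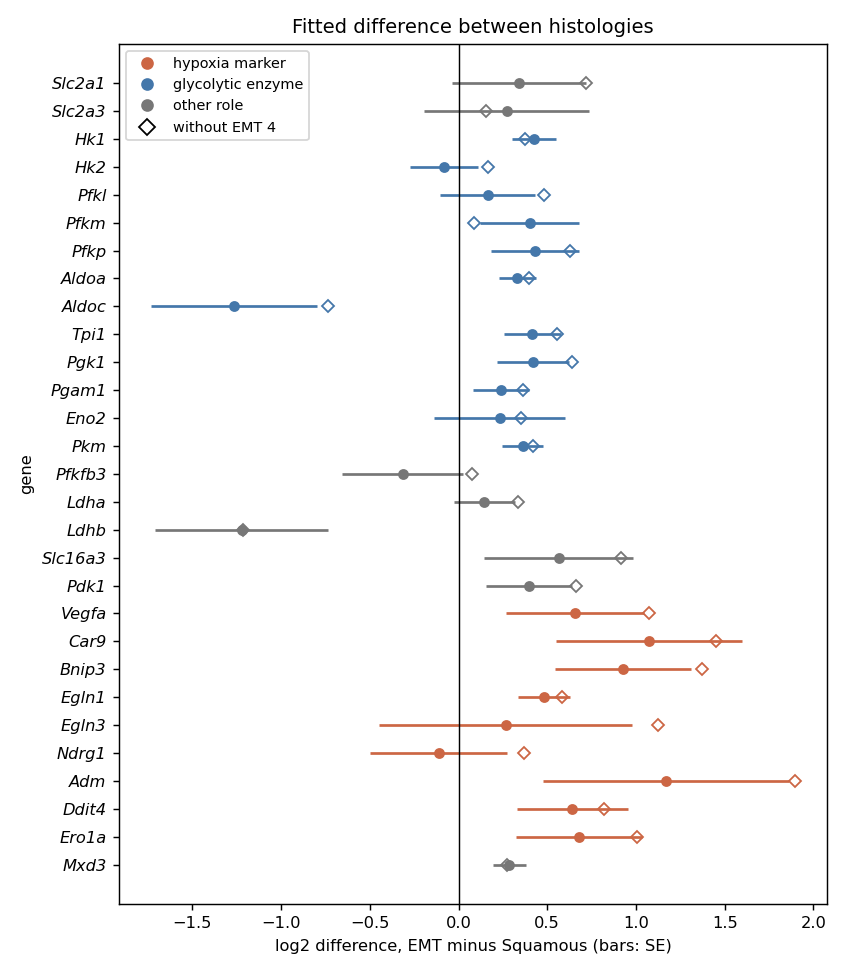
Fitted log2 difference, EMT minus Squamous, for each of the 29 genes, with bars for 1 SE of the limma model (n = 6 and 9), coloured by role. Open diamonds give the difference without EMT 4, the tumour with the lowest means, which lies further to the right for every hypoxia marker, with Adm reaching 1.90. Only this leave-out is drawn, and EMT 4 was singled out after the values were seen.

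Glucose enters the cell through the facilitative transporters Slc2a1 (GLUT1) and Slc2a3 (GLUT3). Slc2a1 ranged from 10.21 to 11.45 in Squamous tumours, with a median of 10.83. EMT 2, EMT 5 and EMT 6 had 12.55, 12.48 and 12.54, higher than any Squamous tumour. It was 10.37 and 11.15 in EMT 1 and EMT 3, inside the Squamous range, and 9.54 in EMT 4, the lowest of the 17 tumours. The log2 difference was 0.34 (SE 0.38, limma adjusted p = 0.709), and it was -0.05 without EMT 2. Slc2a3 ranged from 5.67 in Squamous 1 and 5.79 in Squamous 2 to 8.49 in Squamous 3, a wider spread than that of Slc2a1, and 4 of the 6 EMT tumours, which ran from 6.51 to 8.64, lay inside this range. Over 17 tumours Pearson's r was 0.87 with the fibroblast marker mean, 0.87 with the endothelial mean and 0.805 with the macrophage mean, against 0.27 with the hypoxia marker mean. The part of these cells in the Slc2a3 level was not tested. The 2 dimmest of its 4 probe sets ran against the one used (r of -0.56 and -0.58), at mean levels of 4.49 and 4.28, under each array's lower quartile.

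Hexokinases trap glucose in the cell as its phosphate. Hk1 ranged from 10.15 to 10.75 in Squamous tumours with a median of 10.27. In EMT tumours it was lowest at 10.36 in EMT 1 and highest at 11.04 in EMT 3, with EMT 4 at 10.97 and EMT 6 at 11.01. Hk1, Pfkm and Mxd3 were the genes of the 29 for which EMT 4 lay above every Squamous tumour. The log2 difference was 0.43 (SE 0.13, unadjusted p = 0.00461, limma adjusted p = 0.209). Hk2, the hexokinase counted among HIF targets, was 11.03 in both EMT 5 and EMT 6 and 8.81 in EMT 4, but Squamous 9 on the third TM array also had 11.01, so that the TM arrays stood together above the numbered ones, which lay between 8.81 and 10.32. Its difference was -0.08 (SE 0.19, adjusted p = 0.879).

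Phosphofructokinase, which commits sugar to glycolysis, has a liver, a muscle and a platelet type. Pfkp (platelet type) was 10.73, 10.37 and 10.44 in EMT 2, EMT 5 and EMT 6, all above the Squamous maximum of 9.87, and its difference was 0.43 (SE 0.25, adjusted p = 0.442). Pfkl (liver type) was highest in Squamous 2 at 11.97 and lowest in EMT 4 at 10.11, with a difference of 0.16 (SE 0.27, adjusted p = 0.812). Pfkm (muscle type) was highest in EMT 4 at 10.14 and lowest in EMT 2 at 7.87, where Pfkp was highest. The r between them was -0.39. Over 17 tumours Pfkm had an r of 0.65 with the skeletal muscle marker mean and -0.36 with the hypoxia marker mean. Its difference of 0.40 (SE 0.28, adjusted p = 0.524) was 0.09 without EMT 4, the tumour with the highest muscle markers, whose part in the Pfkm level was not tested. Pfkfb3, which makes the activator fructose 2,6-bisphosphate, was 5.95 in EMT 4 and between 7.19 and 8.80 in the 14 other EMT and Squamous tumours, with a difference of -0.31 (SE 0.34, adjusted p = 0.703) that was 0.08 without EMT 4.

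The enzymes of the middle and lower pathway other than Aldoc had fitted differences of 0.23 to 0.42. Aldoa, the main aldolase, ranged from 12.25 to 12.97 in Squamous tumours with a median of 12.58, and was 13.13, 13.37 and 13.54 in EMT 2, EMT 5 and EMT 6. EMT 1, EMT 3 and EMT 4, at 12.68, 12.85 and 12.58, lay inside the Squamous range. The log2 difference was 0.33 (SE 0.10, unadjusted p = 0.00655, adjusted p = 0.214 with limma). Tpi1 (triose phosphate isomerase) and Pgk1 (phosphoglycerate kinase, the first ATP-yielding step) each lay above the highest Squamous tumour in 4 of 6 EMT tumours. Pgk1 was 13.25, 12.86, 13.17 and 13.49 in EMT 2, EMT 3, EMT 5 and EMT 6 against a Squamous range of 11.74 to 12.62, and 11.82 in EMT 4. Its difference was 0.42 (SE 0.20, adjusted p = 0.364), and that of Tpi1 was 0.42 (SE 0.16, adjusted p = 0.281).

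Pkm, pyruvate kinase, was 12.17 ± 0.27 (SD, n = 9) over Squamous tumours and 12.66 ± 0.37 (SD, n = 6) over EMT tumours, with a difference of 0.36 (SE 0.12, adjusted p = 0.229). It was read from 1 probe set. Pgam1, the mutase, differed by 0.24 (SE 0.16, adjusted p = 0.496). Eno2, the enolase named for neurons, was 8.81 and 9.24 in EMT 5 and EMT 6, and between 5.44 and 7.53 in the 13 other EMT and Squamous tumours. Its difference was 0.23 (SE 0.37, adjusted p = 0.808), and it was -0.105 on the numbered arrays alone, which leave out both high tumours. The macrophage marker mean was highest in the same tumours, 11.98 and 11.46 in EMT 5 and EMT 6 against 8.22 to 10.55 in Squamous tumours, and its part in the Eno2 level was not tested. On all 3 Gapdh control probe sets EMT 2, EMT 5 and EMT 6 lay above every Squamous tumour, with EMT minus Squamous means of 0.40 to 0.50 and no model fit. On the set nearest the 3′ end Gapdh was 13.94, 14.05 and 14.27 in these EMT tumours, and Squamous tumours ranged from 13.12 to 13.71.

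Aldoc and Ldhb were the exceptions. Aldoc, the aldolase named for brain, ranged from 9.55 in Squamous 9 to 11.46 in Squamous 4, with a median of 11.19. It was 11.20 and 11.23 in EMT 1 and EMT 3, like most Squamous tumours, but 9.41, 7.81, 7.38 and 8.87 in EMT 2, EMT 4, EMT 5 and EMT 6, below every Squamous tumour. The log2 difference was -1.26 (SE 0.47, unadjusted p = 0.0174, limma adjusted p = 0.263), and -0.73 without EMT 4. A second, dimmer Aldoc probe set differed by -0.38 in group means, against -1.64 for the one used. Ldhb, the lactate dehydrogenase subunit of oxidative tissues, ranged from 9.38 to 11.11 in Squamous tumours, with 10.30 and 10.29 in EMT 1 and EMT 3. It was 7.23, 8.97, 6.75 and 8.03 in EMT 2, EMT 4, EMT 5 and EMT 6, again below every Squamous tumour. The difference was -1.22 (SE 0.49, unadjusted p = 0.0260, adjusted p = 0.295), and -0.77 without EMT 2. All 4 Ldhb probe sets gave a lower EMT mean, with differences of -1.33 to -2.05.

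Of the 29 genes, these 2 were the ones with at least 4 EMT tumours below the lowest Squamous tumour, a count chosen after the values were seen, where 3.74% of all genes reached it. Both correlated with the mammary epithelial markers over the tumours, but Ldhb in EMT 2 departed from this. Over 17 tumours Aldoc had an r of 0.93 with the mean of the 10 epithelial markers and Ldhb one of 0.75, whereas Aldoa had -0.65 and Ldha -0.22. The epithelial mean was 7.79, 6.35 and 7.65 in EMT 4, EMT 5 and EMT 6. In EMT 2 it was 10.56, near the lowest Squamous tumour at 10.58, and all 10 markers lay above the array median. Ldhb was nevertheless 7.23 in EMT 2, against a Squamous minimum of 9.38, and lower than the 8.97 of EMT 4. Aldoc was 9.41 in EMT 2, against a Squamous minimum of 9.55. The part of epithelial cell content in the Aldoc and Ldhb levels was not tested.

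**Figure D3:**
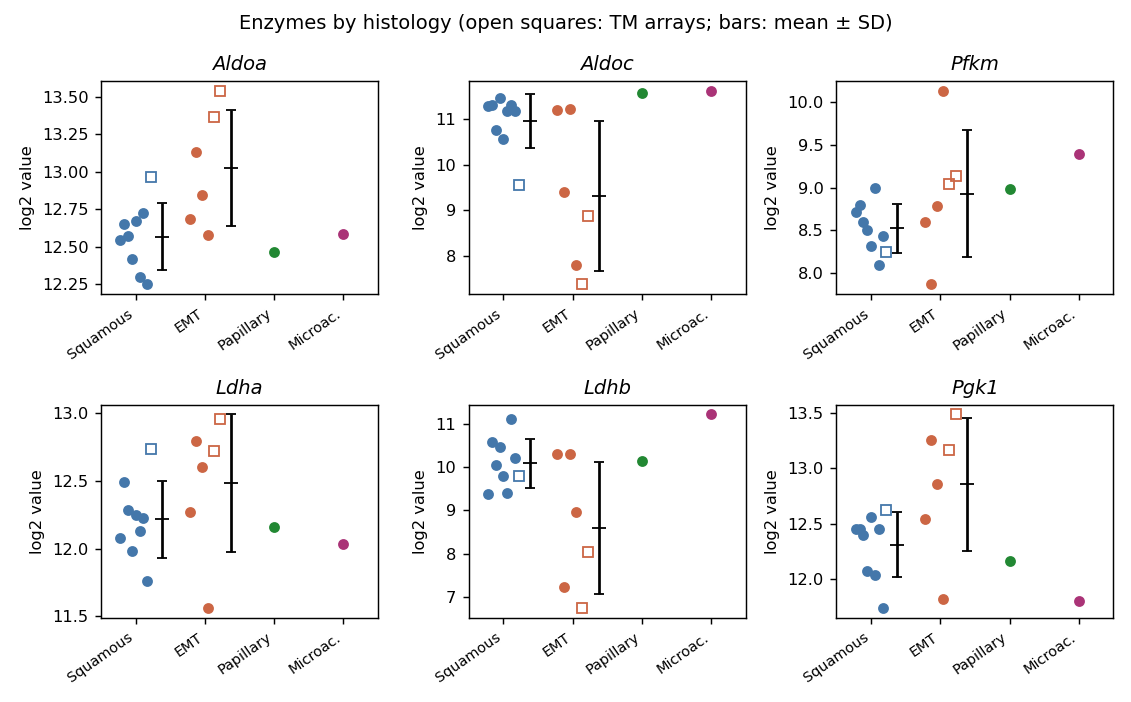
Log2 values of Aldoa, Aldoc, Pfkm, Ldha, Ldhb and Pgk1 by histology, 1 point per tumour, with open squares for the TM arrays and bars for the mean and SD. Aldoc and Ldhb lie below all 9 Squamous tumours in 4 of 6 EMT tumours, Pgk1 lies above them in 4 of 6, and Pfkm is highest in EMT 4.

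Ldha, Slc16a3 and Pdk1 act on pyruvate and lactate. Ldha, the subunit that favours lactate formation, ranged from 11.76 to 12.73 in Squamous tumours with a median of 12.23. In EMT tumours it was 11.56 and 12.96 in EMT 4 and EMT 6, the lowest and the highest of all 17 tumours. The log2 difference was 0.15 (SE 0.17, adjusted p = 0.727). Slc16a3 (MCT4, the lactate exporter) was 9.55, 9.41 and 9.79 in EMT 2, EMT 5 and EMT 6, all above the Squamous maximum of 8.63, and 6.80 in EMT 4, under the minimum of 6.88. Its difference was 0.56 (SE 0.42, adjusted p = 0.553). Pdk1, the kinase that holds pyruvate dehydrogenase inactive, lay above the highest Squamous tumour (8.23) in 4 of 6 EMT tumours, with 9.12 and 8.90 in EMT 6 and EMT 3, and was 7.16 in EMT 4. Its difference was 0.40 (SE 0.24, adjusted p = 0.464).

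Among the hypoxia markers, 6 of 9 had at least 4 EMT tumours above the highest Squamous tumour (Vegfa, Bnip3, Egln1, Egln3, Adm and Ero1a), and 2 of the 12 enzymes did. This count too was chosen after the values were seen, and 5.39% of all genes reached it. No gene of the 29 had all 6 EMT tumours above the Squamous range (background 0.153%) or below it (background 0.0968%). EMT 4 was the lowest of the 15 EMT and Squamous tumours for 12 of the 29 genes (background 8.70%), 5 of the 9 hypoxia markers among them. EMT 6 was the highest for 13 of the 29 (background 12.4%).

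Bnip3, which marks mitochondria for removal, ranged from 9.23 to 10.38 in Squamous tumours with a median of 9.85. It was 11.82, 11.11, 12.29 and 12.60 in EMT 2, EMT 3, EMT 5 and EMT 6, all above the Squamous range, with 10.15 and 8.96 in EMT 1 and EMT 4. The log2 difference was 0.93 (SE 0.38, unadjusted p = 0.0308, limma adjusted p = 0.309), 0.64 on the numbered arrays and 1.37 without EMT 4. Egln1, the main oxygen-sensing prolyl hydroxylase and itself a HIF target, had the smallest SE of the markers. It was 9.40 ± 0.26 (SD, n = 9) over Squamous tumours and 9.98 ± 0.41 (SD, n = 6) over EMT tumours, a difference of 0.48 (SE 0.15, unadjusted p = 0.00529, adjusted p = 0.211). Egln3, its inducible relative, was 7.53 in Squamous 8 and 6.74 in EMT 4, and between 9.76 and 11.75 in the 13 other EMT and Squamous tumours. The Egln3 difference was 0.27 (SE 0.71, adjusted p = 0.894). It was 1.12 without EMT 4, but -0.06 without EMT 2 and -0.10 without EMT 3.

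Vegfa, the angiogenic growth factor, was 11.01, 9.94, 9.88 and 10.17 in EMT 2, EMT 3, EMT 5 and EMT 6 against a Squamous range of 8.26 to 9.53, and 7.94 in EMT 4. Its difference was 0.66 (SE 0.39, adjusted p = 0.449). Adm, the vasodilator peptide adrenomedullin, had the widest spread of the 29 genes, from 5.42 in EMT 4 to 10.76 in EMT 2, and Squamous tumours ranged from 6.22 to 8.32. Its difference was 1.17 (SE 0.69, adjusted p = 0.451), 0.53 without EMT 2 and 1.90 without EMT 4. Car9, the carbonic anhydrase of the cell surface, ranged from 5.65 to 7.24 in Squamous tumours and was 10.68, 8.22 and 8.14 in EMT 6, EMT 3 and EMT 2. EMT 1 and EMT 5, at 7.07 and 7.06, lay inside the Squamous range. The Car9 difference was 1.07 (SE 0.52, adjusted p = 0.368).

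Ero1a, the oxidase of protein folding in the endoplasmic reticulum, was 11.61, 10.94, 11.40 and 12.04 in EMT 2, EMT 3, EMT 5 and EMT 6 against 8.82 to 10.49 in Squamous tumours. Its difference was 0.68 (SE 0.35, adjusted p = 0.398). Ddit4, an inhibitor of mTORC1, was 11.93 and 11.74 in EMT 2 and EMT 6 against a Squamous maximum of 10.95, with a difference of 0.64 (SE 0.31, adjusted p = 0.366). Ndrg1, a gene induced by stress and low oxygen, was the exception among the markers. It ranged from 10.38 to 12.01 in Squamous tumours and was 12.21 and 9.28 in EMT 3 and EMT 4. It differed by -0.11 (SE 0.39, adjusted p = 0.921), turning to 0.37 without EMT 4 and to -0.38 without EMT 3. Its r with the mean of the other markers was 0.33, and with the mammary epithelial mean 0.47.

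**Figure D4:**
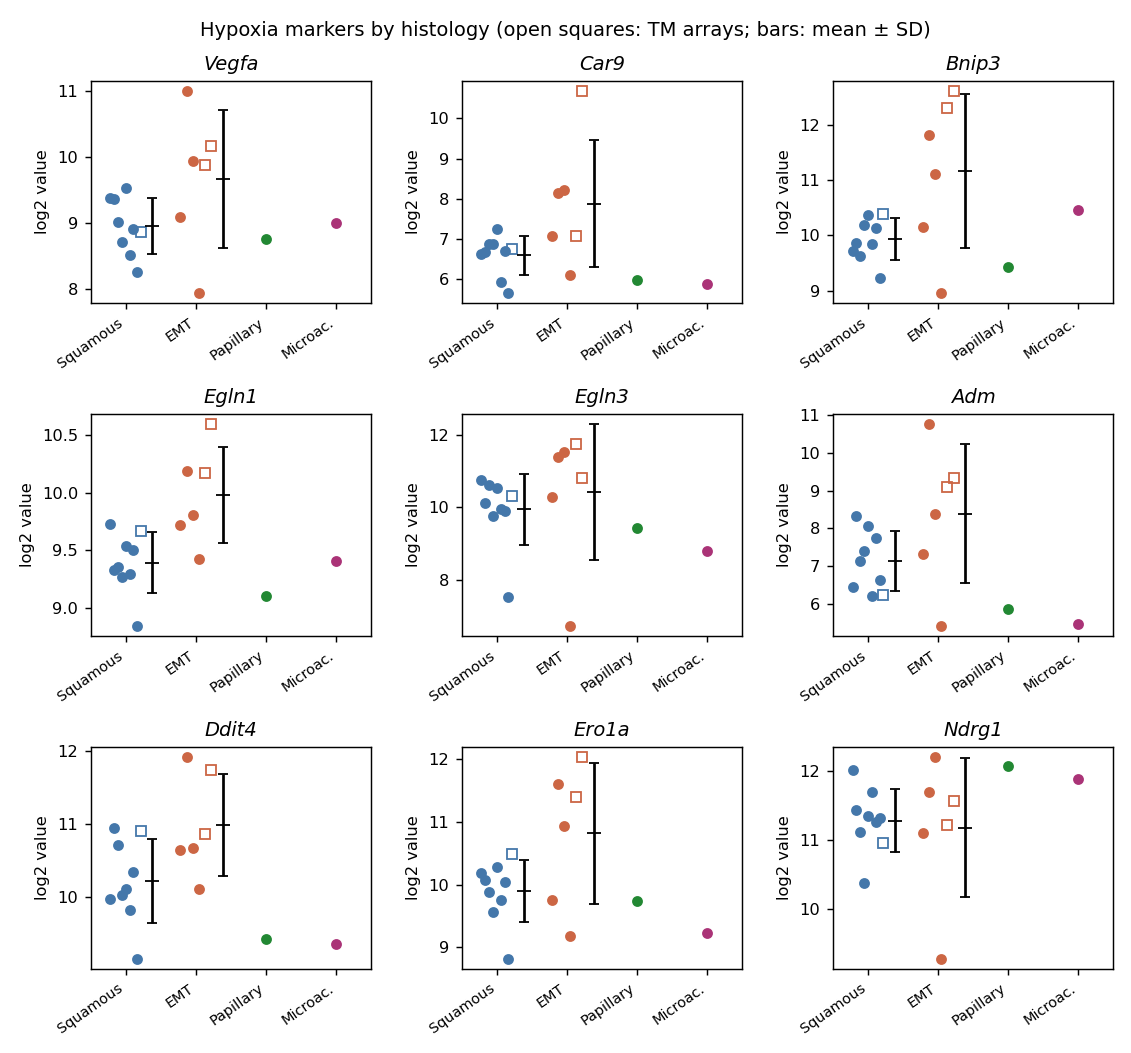
Log2 values of the 9 hypoxia markers by histology, 1 point per tumour, with open squares for the TM arrays and bars for the mean and SD. The EMT tumours spread further than the Squamous ones for every marker, with EMT 4 the lowest EMT tumour throughout, as in Egln3 at 6.74.

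Within title formats the larger differences kept their direction, but smaller ones did not all do so. On numbered arrays (4 EMT and 8 Squamous tumours) the median difference was 0.54 over the hypoxia markers and 0.29 over the enzymes. There, 5 of the 29 genes had an unadjusted p under 0.05 and were higher in EMT (background 5.30%), and 1 was lower (Aldoc, background 4.07%). On the TM arrays, with 1 Squamous tumour, no test was run. There EMT 5 and EMT 6 together averaged 2.07 above Squamous 9 for Bnip3, 2.96 for Adm, 1.16 for Vegfa and 0.70 for Pgk1. The same difference was -2.41 for Ldhb. It was small for others, at 0.40 for both Pkm and Ddit4, 0.10 for Ldha, 0.04 for Slc2a3 and 0.02 for Hk2. On numbered arrays Pfkl and Eno2 turned to -0.0178 and -0.105, against 0.89 and 1.58 on the TM arrays. Pfkfb3, Ndrg1 and Hk2 also differed in direction between the formats. They were -0.51, -0.25 and -0.11 on numbered arrays, and 0.45, 0.43 and 0.02 on the TM arrays. EMT 2 and EMT 3, with their high markers, are on numbered arrays.

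The mean of the enzymes and that of the hypoxia markers moved together over the tumours, the marker mean over a wider range. The SD over 17 tumours had a median of 0.88 for the markers, 0.49 for the enzymes and 0.32 over all genes. The enzyme mean went from 10.16 in EMT 4 to 11.38 in EMT 6, and the marker mean from 8.13 to 11.06 in the same tumours. Pearson's r between these means was 0.94 and Spearman's rho 0.90 over 17 tumours, which share their arrays and normalisation, and no p is given because the genes were chosen with earlier results known. Without EMT 2 and EMT 6, the tumours farthest from the median marker mean, r was 0.95. On numbered arrays it was 0.95 over 14 tumours. Among the 9 Squamous tumours r was 0.80 (rho 0.68), and 0.52 (rho 0.36) without Squamous 6 and Squamous 8. Among the 6 EMT tumours it was 0.95, and 0.59 (rho 0.80, from 0.94) over the 4 left without EMT 1 and EMT 4. Leaving out the tumours farthest from the median narrows the range, and few tumours remain.

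**Figure D5:**
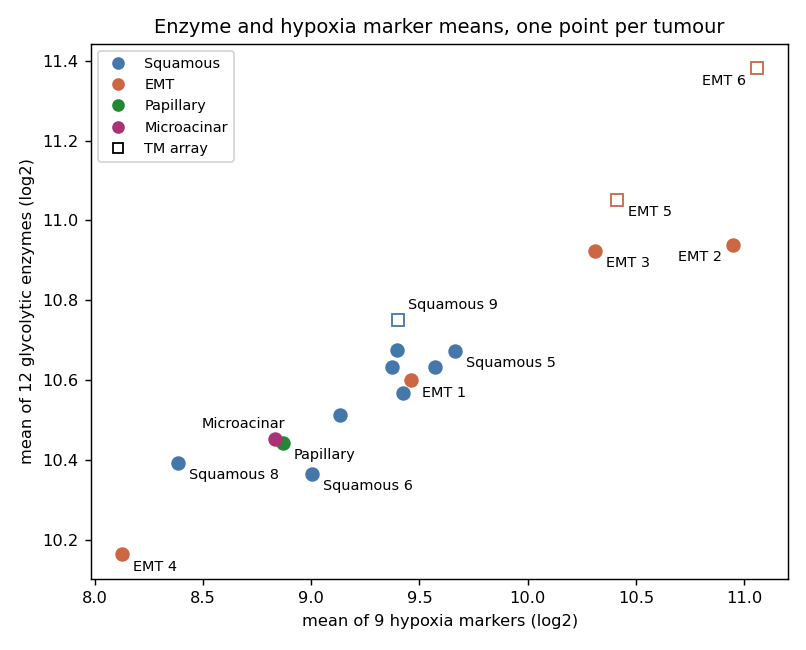
Mean log2 value of the 12 glycolytic enzymes (vertical axis) against that of the 9 hypoxia markers (horizontal axis), 1 point per tumour, coloured by histology, with open squares for TM arrays. EMT 4 lies at the lower left and EMT 6 at the upper right, with EMT 1 among the Squamous tumours.

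The agreement was not shared by every enzyme. Pgk1 followed the marker mean most closely (r = 0.97), then Tpi1 (0.89), Pgam1 (0.87), Aldoa (0.84), Pfkp (0.83) and Pkm (0.83), all over 17 tumours. Hk2 (0.69), Eno2 (0.62), Pfkl (0.51) and Hk1 (0.44) followed it less, and Aldoc (-0.32) and Pfkm (-0.36) ran against it. Of the genes outside the pathway's core, Slc2a1 (0.92), Ldha (0.91), Pdk1 (0.88) and Slc16a3 (0.87) lay close to the markers, Pfkfb3 (0.57) and Slc2a3 (0.27) less so, and Ldhb (-0.59) ran against them. On numbered arrays alone the r stayed below 0 for Pfkm (-0.66) and Ldhb (-0.39), but it was 0.06 for Aldoc. Among the 36 pairs of hypoxia markers the median r was 0.77 and 1 pair was below 0. Among the 66 pairs of enzymes the median was 0.41 and 20 pairs were below 0. Among the 108 pairs of an enzyme with a hypoxia marker the median was 0.64, from -0.59 to 0.98, and 20 were below 0.

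Myc, the oncogene of the model, was 11.09 ± 1.01 (SD, n = 9) over Squamous tumours and 10.37 ± 1.15 (SD, n = 6) over EMT tumours, and over 17 tumours its r was -0.17 with the enzyme mean and -0.14 with the marker mean (rho of -0.24 and -0.14). Without the 2 tumours farthest from the median of each mean, r was -0.37 (rho -0.42) with the enzymes and 0.08 (rho 0.075) with the markers. On numbered arrays the r over all 14 were 0.12 and 0.04. The genes whose r with Myc was furthest from 0 were Aldoc (0.64) and Slc2a3 (-0.56). Mxd3, a repressor that competes with Myc for Max, differed by 0.29 (SE 0.09, unadjusted p = 0.00907, adjusted p = 0.231) over a narrow range of 6.33 to 7.04. Its other 2 probe sets had an r of -0.02 and 0.03 with the one used, although each gave a higher EMT mean, and its r with the hypoxia marker mean was 0.06.

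The measures of RNA integrity correlated with the hypoxia marker mean. The 3′ minus 5′ difference of the beta-actin control was 0.78 ± 0.11 (SD, n = 9) over Squamous tumours and 0.59 ± 0.13 (SD, n = 6) over EMT tumours, a lower value meaning more intact RNA (exact two-sided permutation p = 0.0136). That of Gapdh was 0.19 ± 0.11 (SD, n = 9) and 0.10 ± 0.16 (SD, n = 6) (exact permutation p = 0.243), and it was highest in EMT 4 at 0.39, where the beta-actin value, at 0.64, was near the Squamous minimum of 0.62. Neither permutation test held a term for title format, although 2 of the 3 TM arrays are EMT tumours. Gapdh is itself a listed gene that followed the marker mean, with an r of 0.80 to 0.85. Over 17 tumours the r with the marker mean was -0.59 for the beta-actin value and -0.82 for the Gapdh value. The part of RNA integrity in the levels was not tested.

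The Papillary and the Microacinar tumour were 1 of each and so had no test. The marker mean was 8.87 in the Papillary and 8.83 in the Microacinar tumour, below 8 of the 9 Squamous tumours. Of the 9 markers, 8 lay below the Squamous mean in the Papillary tumour, where 49.9% of all genes did, and 5 in the Microacinar tumour, where 50.6% did, a count near the background. In the Microacinar tumour Bnip3, at 10.46, lay above every Squamous tumour, and Ndrg1, at 11.88, above the Squamous mean of 11.28. Adm was 5.87 in the Papillary and 5.48 in the Microacinar tumour, below the Squamous minimum of 6.22, and only EMT 4 was lower. Slc16a3 was 5.91 in the Microacinar tumour, the lowest of all 17. Aldoc was highest in these 2 tumours, 11.59 in the Papillary and 11.63 in the Microacinar tumour, and Ldhb was highest in the Microacinar tumour at 11.21. Counted over the 29 genes, 1 lay above all 15 EMT and Squamous tumours in the Papillary tumour (background 4.36%) and 3 below (Hk1, Pfkp and Eno2, background 5.04%). In the Microacinar tumour 2 lay above (background 6.67%) and 3 below (Eno2, Pkm and Slc16a3, background 5.33%). Skeletal muscle markers were high in both, with means of 9.55 and 10.05, and their part in these levels was not tested.

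Tumours that share a title number did not share their level. Squamous 7 exceeded Squamous 8 for 8 of 9 hypoxia markers, with a median difference of 1.05, and for 10 of 12 enzymes, with a median of 0.40, while 48.4% of all genes lay higher in Squamous 7 and their median difference was -0.01. The largest of these differences was in Egln3, at 2.36. Squamous 8 had the lowest marker mean of the Squamous tumours at 8.38, and Squamous 7 had 9.40. Squamous 5 exceeded the Microacinar tumour for 7 of 9 markers, by 2.58 for Adm and 1.73 for Egln3, where 45.6% of all genes lay higher. Bnip3 and Ndrg1 went the other way, with differences of -0.09 and -0.54. Of the enzymes, 8 of 12 lay higher in Squamous 5, with a median difference of 0.13.

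Other genes of these pathways were taken from lists written from general knowledge. Of 26 further hypoxia-responsive genes measured, 0 had an adjusted p under 0.05, and 7 were higher and 1 lower in EMT at an unadjusted p under 0.05. P4ha1 and Plod2, hydroxylases that modify collagen, led them, with log2 differences of 1.27 (SE 0.30, adjusted p = 0.153) and 1.72 (SE 0.52, adjusted p = 0.211), and 4 of 6 EMT tumours above the Squamous range for each. They followed the hypoxia markers less closely than Pgk1 did, with an r of 0.62 and 0.43. Rora, a nuclear receptor, differed by -0.96 (SE 0.27, adjusted p = 0.196). Of 8 genes of oxygen sensing and HIF subunits, 1 had an unadjusted p under 0.05, Arnt, the beta subunit partner of HIF (0.41, SE 0.15, adjusted p = 0.252). Next in order of p were Vhl, the ligase subunit that recognises hydroxylated HIF (0.16, adjusted p = 0.426), and Hif3a (0.11, adjusted p = 0.677). Arnt and Vhl were dim, with Squamous means of 5.51 and 5.255, near the lower quartiles of the arrays (5.24 to 5.41). For each, 2 of 6 EMT tumours lay above the Squamous range.

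Of 13 other glycolysis genes, 0 were higher and 4 lower in EMT at an unadjusted p under 0.05 (Fbp2, Slc16a1, Gpd1 and Pfkfb2, the last named after its value was seen). The mean of these 13 genes ran against the hypoxia marker mean over all tumours, with an r of -0.70. The same r was 0.94 for the glycolytic enzyme mean and 0.83 for the mean of the 26 further hypoxia-responsive genes. The agreement of the enzyme mean with the markers thus did not extend to this list of other glycolysis genes. Fbp2, which reverses the phosphofructokinase step in gluconeogenesis, differed by -1.51 (SE 0.43, adjusted p = 0.204), Slc16a1 (MCT1, a lactate transporter) by -0.52 (SE 0.20, adjusted p = 0.288) and Gpd1, which links glycolysis to glycerol lipids, by -1.16 (SE 0.48, adjusted p = 0.306). The adipocyte marker mean was highest in the Microacinar tumour at 9.25, as Gpd1 was at 11.80, and its part in Gpd1 was not tested. Of 9 genes of pyruvate entry into mitochondria, 1 was higher and 2 lower. Pdk3 lay higher in EMT by 0.58 (SE 0.19, adjusted p = 0.229), Pcx (pyruvate carboxylase) differed by -1.04 (SE 0.34, adjusted p = 0.231) and Pdhb, a subunit of pyruvate dehydrogenase, by -0.38 (SE 0.17, adjusted p = 0.341). Of 9 pentose phosphate genes, 1 was higher (Prps2, 0.22, adjusted p = 0.337) and 1 lower (Taldo1, -0.51, SE 0.17, adjusted p = 0.238), and Tkt, transketolase, differed by -0.21 (adjusted p = 0.506). All of these adjusted p come from the same limma fit, with the backgrounds of 8.08% and 6.27% given above.

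Among 6173 genes above the median level and outside the list, those whose values most resembled the hypoxia marker mean over 17 tumours were Arg1 (r = 0.92), Cyth2 (0.89), Chic2 (0.88), Mif (0.87) and Rlf (0.87). Arg1, arginase, was 13.80, 12.99 and 13.53 in EMT 2, EMT 5 and EMT 6, with 11.98 and 10.57 in EMT 3 and EMT 1. It was 7.36 in EMT 4, and ranged from 7.84 to 12.28 in Squamous tumours. Its r with the markers was 0.90 without the 2 tumours farthest from the median marker mean and 0.935 on numbered arrays. Mif, a cytokine, was 13.08 and 13.11 in EMT 5 and EMT 6 against 11.69 to 12.50 in Squamous tumours, and 12.11 in EMT 4. The genes closest to the enzyme mean were Otud5 (0.92), Map2k1 (0.91), Tmem68 (0.90), Cttnbp2nl (0.89) and Arg1 (0.89). Arg1 was the one gene among the 5 nearest of both means.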

How the data were processed

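Values are log2 expression per probe set as the authors deposited them, for 22690 probe sets on 17 arrays. Per the labels' protocols, biotin-labelled cRNA was made from 5 µg total RNA. How the values were normalised is not given in the sources used here, and their range showed the log2 scale. Array medians were 7.23 to 7.40, and no further normalisation was applied. Control probe sets (64) and probe sets with several symbols (691) or none (1555) were left out of the gene model, and each of 12393 genes took its probe set with the highest mean. Names were updated by gene identifier for 20351 of 20380 probe sets.

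The EMT against Squamous comparison used R 4.3.3 and limma 3.58.1 (histology plus title format, eBayes, Benjamini-Hochberg, threshold 0.05). The fit was tested on simulated data. Correlations are over tumours. Python 3.11.15, pandas 2.3.3, numpy 2.4.6, scipy 1.17.1 and matplotlib 3.10.9 were used. Alternatives were no title format term, numbered arrays alone, array weights, quantile normalisation, a robust fit with trend, averaging a gene's probe sets, centring arrays on their medians, testing the more highly expressed genes alone, 4 groups, averaging Squamous 7 with Squamous 8 and leaving out each tumour. The members and lists were chosen with earlier results of these data known. Named genes were all members, Ero1a, Myc, the 3 genes of smallest p in each pathway list and the 5 nearest to each mean. Cell type lists held markers of mammary epithelium, keratinocytes, skeletal muscle, macrophages, neutrophils, T and NK cells, endothelium, fibroblasts, adipocytes and erythroid cells. The number of arrays limits the precision.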

Additional observations from a re-analysis of the deposited data

Results flagged for a closer look

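A tumour stood apart from the rest of its histology by Dixon's criterion in 5 of 62 groups of values, where chance gives about 1 in 20. Egln3 was 7.53 in Squamous 8, with the next Squamous tumour at 9.76, and 6.74 in EMT 4, with the next EMT tumour at 10.29. Aldoc was 9.55 in Squamous 9 with the next at 10.57, and Hk2 was 11.01 in the same tumour with the next at 10.18. Squamous 9 is the one Squamous tumour on a TM array, and the part of the array set in these values was not tested. Pfkfb3 was 8.80 in Squamous 2 with the next Squamous tumour at 8.01.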

How the results depend on the processing

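In 10 alternative fits and in 15 without 1 tumour each, 0 of the listed genes had an adjusted p under 0.05 by limma, the smallest being 0.0744 (Hk1 without EMT 1). The count over all genes was 0 in each of these fits except without EMT 1, when it was 14. Of 719 values for single genes, 704 kept their direction. Hk2 was 0.19 without the title format term. On numbered arrays alone Pfkl was -0.0178 and Eno2 -0.105, the values also found without Squamous 9. With array weights Slc2a3 was -0.20, Eno2 -0.00501 and Ndrg1 0.18. Leaving out 1 tumour gave ranges of -0.0493 to 0.72 for Slc2a1, -0.0133 to 0.50 for Slc2a3, -0.10 to 1.12 for Egln3, -0.22 to 0.17 for Hk2, -0.54 to 0.0772 for Pfkfb3, -0.38 to 0.37 for Ndrg1, -0.0178 to 0.48 for Pfkl and -0.105 to 0.41 for Eno2. The median difference ranged from 0.22 to 0.41 for the enzymes, 0.38 to 1.07 for the hypoxia markers and 0.16 to 0.69 for the gap between them, lowest without EMT 2 for all of these, and highest without EMT 1 for the enzymes and without EMT 4 for the markers and the gap. The correlation of the means was 0.904 by Spearman in place of 0.94, ranged from 0.93 to 0.97 without 1 tumour, and was 0.92 with each tumour taken as its deviation from its histology mean. No paired analysis was possible because replicate numbers only name the tumours in accession order. The 3 TM arrays, with 1 Squamous tumour, limit what can be said of EMT 5 and EMT 6.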

Other observations

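Levels of the other marker lists are given as list means over tumours. Keratinocyte markers ranged from 7.53 to 12.62 in Squamous and from 5.20 to 11.02 in EMT tumours, and their r with the hypoxia marker mean over 17 tumours was 0.04. Neutrophil markers ranged from 7.51 to 9.69 and from 7.07 to 9.07 in the same order, T and NK cell markers from 5.39 to 6.68 and from 5.39 to 6.47, and erythroid markers from 5.02 to 5.82 and from 5.03 to 5.69. Fibroblast markers ranged from 9.05 to 12.46 and were highest in EMT 4 at 12.98, and endothelial markers ranged from 6.41 to 8.43 and from 6.93 to 8.17. Their r with the hypoxia marker mean was 0.03 and 0.08.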
